A study of Mus musculus with 4 samples.

Results

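The interferon-stimulated genes described here were 33 mouse genes taken from a list by symbol. No expression value was used to pick them, but the list was chosen with earlier results of these data known. Of the 33 genes, 32 had a row among the 32285 genes of the tables. The remaining gene, Mx1, is not analysed here. They were measured in single-cell RNA from whole mouse aorta, in 4 libraries with 1 library per group. The groups were WT mice on normal diet, LysM-DKO mice on normal diet, WT/ApoE-/- mice on western diet and LysM-DKO/ApoE-/- mice on western diet. What LysM-DKO stands for is not spelled out in the labels. The series title concerns epsins, and LysM (Lyz2) is a promoter active in myeloid cells. How many animals went into a library, and their ages, were not given in the sources used here. Every list of 4 values below keeps this order of groups, and the western diet libraries are called WT western and LysM-DKO western for short.

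Interferons are secreted proteins that cells release when they sense foreign or misplaced nucleic acid. Type I interferons such as IFN-beta bind the receptor of IFNAR1 and IFNAR2 and act through the kinases JAK1 and TYK2. The factor ISGF3, of which STAT2 and IRF9 are subunits, then binds the interferon-stimulated response element (ISRE) in promoters. Interferon-gamma acts through its own receptor and the GAS element. The genes switched on encode proteins that bind viral RNA, deplete nucleotides, conjugate ISG15 or attack vacuoles of pathogens, and macrophages of the artery wall are among the cells known to carry such a programme.

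Promoters of these genes were searched for the letters of the ISRE and GAS elements. RefSeq promoter windows (GRCm38.p6, 250 bases before to 50 after the start) were found for 26 of the 33 genes. The ISRE core was searched on both strands as GAAA, any 2 bases and GAAA again, and was found in 15 of these 26 genes (57.7%), against 3.99% of all 27025 genes and 3.44% of all 32851 windows. The GAS element was searched as TTCNNNGAA, which reads the same on both strands, and was in 7 of the 26 (26.9%), against 9.55% of all genes and 8.30% of all windows. In 5 genes both were found, and the letters of the motifs can overlap. The stretches below are from genes the results turn on. In the class tests below, Rsad2, Ifit1, Isg15 and Ifit3 were called higher in macrophages, and Igtp and Gbp7 were not. Capitals mark the ISRE core, which reads TTTC, 2 bases and TTTC where it lies on the other strand.
Rsad2 (chr12:26456528-26456607, minus strand, 155 to 76 bases before the start): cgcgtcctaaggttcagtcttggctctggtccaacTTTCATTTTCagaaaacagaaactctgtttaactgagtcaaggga
Ifit1 (chr19:34640759-34640838, plus strand, 130 to 51 bases before the start): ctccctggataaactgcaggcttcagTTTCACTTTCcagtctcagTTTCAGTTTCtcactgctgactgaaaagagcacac
Isg15 (chr4:156200846-156200925, minus strand, 107 to 28 bases before the start): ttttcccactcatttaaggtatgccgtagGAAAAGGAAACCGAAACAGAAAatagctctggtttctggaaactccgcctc
Ifit3 (chr19:34583355-34583434, plus strand, 174 to 95 bases before the start): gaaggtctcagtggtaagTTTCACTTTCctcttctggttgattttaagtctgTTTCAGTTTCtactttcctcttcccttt
Gbp7 (chr3:142530248-142530327, plus strand, 88 to 9 bases before the start): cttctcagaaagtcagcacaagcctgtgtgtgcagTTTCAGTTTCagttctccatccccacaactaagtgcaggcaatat
Igtp (chr11:58199476-58199555, plus strand, 80 to 1 bases before the start): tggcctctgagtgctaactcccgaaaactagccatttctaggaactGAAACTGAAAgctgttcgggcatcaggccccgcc
Ifit1 and Ifit3 each held 2 copies of the core, Isg15 held 3 that overlap, and the others held 1. A match of letters is a description of the window and not a binding site.

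Values are counts of unique molecular identifiers (UMIs, each a captured RNA molecule) summed over the barcodes of a class in a library and scaled to a common total for every class and library (CPM, the usual depth-scaled unit). The kit reads the 3′ end, so CPM is not scaled by gene length and levels are compared between classes and libraries, not between genes. Barcodes under 1000 UMIs or over 10% mitochondrial were dropped, which left 7758, 8230, 13744 and 8133, with a median of 4167, 3404, 2103 and 6761 UMIs. Classes were assigned from 14 marker genes, none of them an interferon-stimulated gene on the list. Macrophages (at least 5 UMIs of C1qa, C1qb and C1qc) numbered 92, 208, 939 and 135 barcodes, and all 8 macrophage markers were detected in each library. B cells of LysM-DKO western numbered 14 and were left out, since under 20 barcodes were not used. Many barcodes met a second rule, nearly always that of smooth muscle: 1849, 2337, 1144 and 617 barcodes, of which 1799, 2275, 1081 and 591 by smooth muscle markers. In the class chosen by Pecam1 and Cdh5 (endothelial in the plots), the 6 smooth muscle markers summed to between 19664 and 28676 CPM, above the 620 to 1528 CPM of its own 6 markers. It is therefore called the Pecam1/Cdh5 class, and values from barcodes that met a single rule are given where they differ. Between 38 and 129 barcode sequences were shared by any pair of libraries.

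The design puts limits on each comparison between groups. With 1 library per group no difference between groups could be tested, and intervals on levels and ratios cover counting error only. Diet changed together with the ApoE-/- background, and both western diet libraries differed from the normal diet libraries in sex-linked transcripts: Xist was at 950, 950, 0.636 and 0.563 CPM over all kept barcodes. Ddx3y was at 0, 0, 117 and 124 CPM. The counting software was Cell Ranger 6.0.1 for normal diet and 6.1.2 for western diet, per the file headers. These differences cannot be told apart from diet, and "western over normal diet" names the libraries below, not a cause. Differences between classes were tested across the 4 libraries with edgeR's quasi-likelihood test, with a term for the library. Each class was set against the mean of the other 5, and p-values were adjusted by Benjamini-Hochberg over 13819 genes. These p-values rest on the variation of all 23 class-by-library sums around the class and library terms, not on the spread of the named class alone. The 4 libraries come from different groups.

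Most of the genes were higher in macrophages than in the other cells of the wall. Of the 32 genes, 23 were higher in macrophages than in the other classes at an adjusted p under 0.05 and 0 were lower (edgeR; 24 and 0 at an unadjusted p under 0.05, 25 and 0 with DESeq2). Over all genes 21.1% were called higher and 22.4% lower. By role, the calls took in 3 of 3 genes of ISG15 conjugation, 8 of 9 antiviral genes acting on RNA and nucleotides and 3 of 3 surface and secreted genes. They also took in 7 of 8 other induced genes, but only 1 of 3 transcription factors and 1 of 6 measured GTPases. In barcodes that met a single class rule, 20 were higher and 0 lower. Smooth muscle markers in the macrophage class summed to 5087, 5279, 9655 and 5915 CPM, and their part in the levels was not tested.

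**Figure D1:**
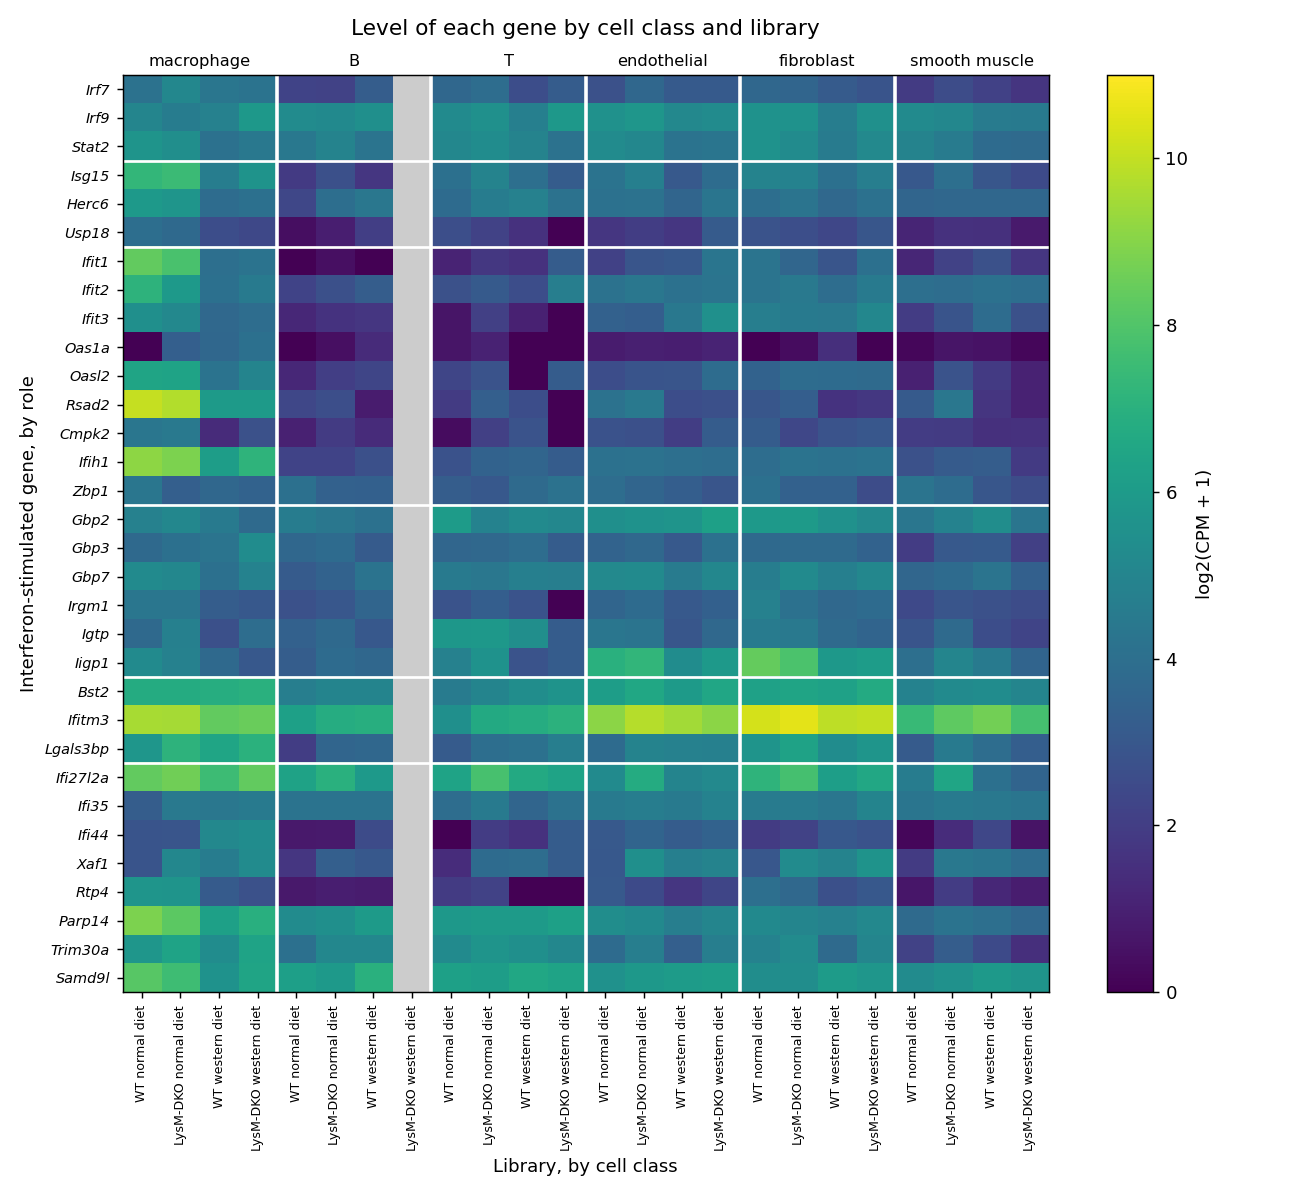
Levels of the 32 measured genes as log2(CPM + 1), in rows grouped by role, for 6 classes with 4 libraries each in columns; grey marks B cells of LysM-DKO western, which had under 20 barcodes. The macrophage columns of the normal diet libraries are the brightest for Rsad2, Ifih1 and Ifit1, while Iigp1 and Ifitm3 are highest in fibroblasts.

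Among the genes acting on RNA and nucleotides, Rsad2 gave the widest contrast. It encodes viperin, an enzyme that makes a chain-terminating nucleotide, and lies at chr12:26442746-26456452 on the minus strand. Its level in macrophages was 1041, 846, 62.1 and 62.7 CPM (95% counting intervals 951 to 1140, 792 to 902, 54.6 to 70.5 and 45.6 to 84.2). All other classes and libraries lay between 0 and 21.0 CPM, so macrophages did not overlap with them. The log2 difference from the other classes was 6.38 with an adjusted p of 1e-11 in edgeR's quasi-likelihood test.

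Ifih1 encodes MDA5, a sensor of long double-stranded RNA. It stood at 563, 453, 69.0 and 141 CPM in macrophages, against 2.65 to 17.5 CPM elsewhere, again with no overlap. Its log2 difference was 5.18 (edgeR, adjusted p = 2.6e-09). Ifit1, whose product binds RNA with an unmethylated cap, was at 323, 226, 15.1 and 17.1 CPM in macrophages and at 0 to 18.3 CPM elsewhere. Macrophages of both western diet libraries overlapped with other classes for this gene, and the log2 difference was 5.64 (edgeR, adjusted p = 1.1e-05).

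Oasl2, related to the oligoadenylate synthetases, was at 83.8, 82.7, 17.4 and 29.9 CPM in macrophages and at 0 to 13.8 CPM in the other classes. Ifit2, a relative of Ifit1, was at 136, 61.8, 15.9 and 21.4 CPM, against 3.67 to 24.8 CPM elsewhere. Ifit3, the third of these relatives listed, was at 44.0, 34.5, 12.3 and 14.2 CPM, against 0 to 45.0 CPM elsewhere. Fibroblasts were the highest class for Ifit3 in WT western, and the Pecam1/Cdh5 class was highest in LysM-DKO western. Reads of Ifit3 may be shared with the near copy Ifit3b. Oasl2, Ifit2 and Ifit3 were higher in macrophages by 3.47, 2.26 and 1.94 on the log2 scale. Cmpk2, a nucleotide kinase next to Rsad2 on chromosome 12, was higher by 1.66. Oas1a, a synthetase with near copies, also passed. Zbp1, a sensor of Z-form nucleic acid, did not pass, with a log2 difference of 0.50.

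In ISG15 conjugation, Isg15 encodes a ubiquitin-like protein that is attached to other proteins. It stood at 157, 181, 24.3 and 49.9 CPM in macrophages and at 2.35 to 29.7 CPM elsewhere, so that WT western overlapped with other classes. The log2 difference was 3.09 (edgeR, adjusted p = 4.3e-09). Usp18, which removes ISG15 and damps the receptor, was higher by 1.78, and Herc6, the mouse ligase for ISG15, by 1.21.

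Of the surface and secreted genes, Lgals3bp, which encodes a secreted galectin-binding glycoprotein, was at 54.5, 137, 88.0 and 128 CPM in macrophages and was higher by 2.63 (edgeR, adjusted p = 4.5e-11). Bst2 encodes tetherin, which holds budding virus at the cell surface. It was nearly level over the macrophages of the 4 libraries, at 107, 107, 114 and 125 CPM, just above the 22.7 to 105 CPM of all other classes. Ifitm3, which hinders virus entry at endosomes, was at 748, 723, 331 and 355 CPM, a log2 difference of 1.10 that passed. Fibroblasts held more of it, at 943 to 1485 CPM, and the Pecam1/Cdh5 class was at 539 to 882 CPM.

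Among the other induced genes, Parp14, a mono-ADP-ribosyltransferase, was at 454, 295, 74.9 and 121 CPM in macrophages and at 11.8 to 74.5 CPM elsewhere. Samd9l, a translation inhibitor, was at 283, 188, 47.0 and 84.1 CPM, within reach of the 38.1 to 125 CPM of the other classes on western diet. Ifi27l2a, a small membrane protein, was at 327, 393, 184 and 325 CPM, and Trim30a, a ubiquitin ligase of the TRIM family, at 54.5, 83.6, 39.6 and 82.6 CPM. All 4 were higher in macrophages, by 2.81, 1.36, 2.35 and 1.86 on the log2 scale. Ifi44 (2.92), Rtp4 (3.45) and Xaf1 (0.84) also passed, and Ifi35 did not (0.04).

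The transcription factors that make or follow the signal were less uneven. Irf7, which amplifies interferon production, was at 16.8, 32.7, 18.9 and 17.1 CPM in macrophages and at 2.20 to 14.1 CPM elsewhere, a log2 difference of 1.88 that passed. The ISGF3 subunits Irf9 and Stat2 did not pass, with log2 differences of 0.00 and 0.32. Irf9 was at 31.4, 23.6, 27.1 and 57.0 CPM in macrophages, and Stat2 at 50.3, 42.7, 16.1 and 19.9 CPM.

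The GTPases, which attack the vacuoles in which pathogens live, stood out least. Of the 6 measured, Gbp3 was higher in macrophages, by 1.13 on the log2 scale. Gbp2 was at 27.2, 33.6, 21.2 and 12.8 CPM there and Gbp7 at 37.7, 32.7, 15.9 and 28.5 CPM. Their log2 differences of -0.49 and 0.51 did not pass, nor did those of Irgm1 (0.68, adjusted p = 0.054), Igtp (-0.01) and Iigp1 (-0.73).

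Rank order within each library is a description, since the share of all genes with macrophages or fibroblasts highest was not counted. Macrophages were the highest class for 21, 22, 15 and 15 of the 32 genes. For 9 genes they were highest in all 4 libraries: Irf7, Isg15, Oasl2, Rsad2, Ifih1, Bst2, Lgals3bp, Ifi27l2a and Parp14. Fibroblasts were the highest class in all 4 libraries for Iigp1 and Ifitm3.

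**Figure D2:**
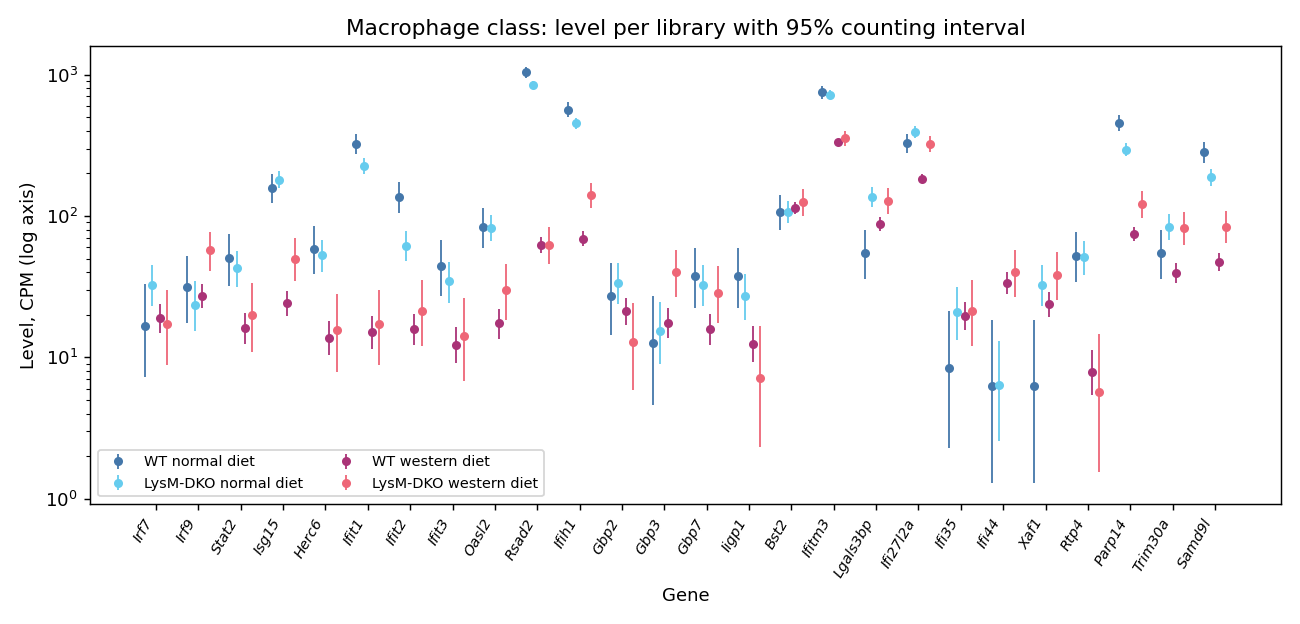
CPM in macrophages of each library, on a log axis, for the genes with at least 100 UMIs over the macrophages of the 4 libraries; points are libraries and bars are 95% counting intervals. For Rsad2 the normal diet libraries stand at 1041 and 846 CPM and the western diet libraries at 62.1 and 62.7, while for Bst2 all 4 lie between 107 and 125.

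Macrophages of the western diet libraries held much less of the antiviral group than those of the normal diet libraries, in both genotypes. The 32 genes summed to 4804, 4281, 1367 and 1918 CPM. In WT, 31 genes had at least 20 UMIs over the pair, and the median western-to-normal log2 ratio was -1.28, against 0.25 over all genes. At least 2-fold lower were 18 of the 31, against 8.71% of all genes, and 4 were at least 2-fold higher, against 21%. Of these 4, Oas1a had 0 UMIs in WT on normal diet, which allows up to 6.28 CPM, and 11.8 CPM on western diet, so it was at least 1.87-fold higher. Counted at that bound, 3 genes were 2-fold higher and the median was the same. In LysM-DKO the median of 30 genes was -1.11, against 0.10 over all genes, and -0.477 with equal weight per barcode. There, 17 were at least 2-fold lower, against 6.46%, and 3 were higher, against 7.11%.

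The diet pairs of the 2 genotypes share no library. Of 29 genes with enough UMIs in both, 17 were at least 2-fold lower in WT, 16 in LysM-DKO and 15 in both. The 15 make up 88.2% of the WT list and 93.8% of the LysM-DKO list. Over all 7621 genes with enough UMIs in both pairs, 686 were lower in WT, 464 in LysM-DKO and 199 (2.61%) in both, or 29.0% and 42.9% of these lists. The 15 were Stat2, Isg15, Herc6, Ifit1, Ifit2, Ifit3, Oasl2, Rsad2, Ifih1, Irgm1, Iigp1, Ifitm3, Rtp4, Parp14 and Samd9l.

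The largest ratios were those of Ifit1 and Rsad2. In WT the log2 ratio of Ifit1 was -4.41 (interval -4.88 to -3.98), and it was -3.67 (-4.70 to -2.90) for LysM-DKO. For Rsad2 the ratios were -4.06 (-4.29 to -3.84) and, for LysM-DKO, -3.74 (-4.22 to -3.32). The ratios of Ifih1 were -3.03 (-3.28 to -2.78) in WT and, for LysM-DKO, -1.68 (-2.01 to -1.37), and their difference was not tested. In the macrophages with resident markers alone, described below, Ifih1 was at 475, 512, 218 and 253 CPM. Isg15 was at -2.69 and -1.84, and Parp14 at -2.60 and -1.28. Ifit2 was at -3.10 and -1.49, Samd9l at -2.59 and -1.15, and Oasl2 at -2.28 and -1.44. Ifitm3 was at -1.18 and -1.03.

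Some genes did not move this way. Bst2 and Lgals3bp were not lower by 2-fold in either pair. Ifi44 was higher on western diet, at 6.3, 6.4, 33.7 and 39.9 CPM, a log2 ratio of 2.21 in WT and 2.58 in LysM-DKO. Gbp3, a guanylate-binding GTPase, was at 12.6, 15.4, 17.6 and 39.9 CPM, with a ratio of 1.35 in LysM-DKO. By role, the median ratio was lowest for the genes acting on RNA and nucleotides in WT, -2.65 over 8 genes, and for ISG15 conjugation in LysM-DKO, -1.77 over 2 genes. For the surface and secreted genes the medians were 0.08 and -0.09.

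**Figure D3:**
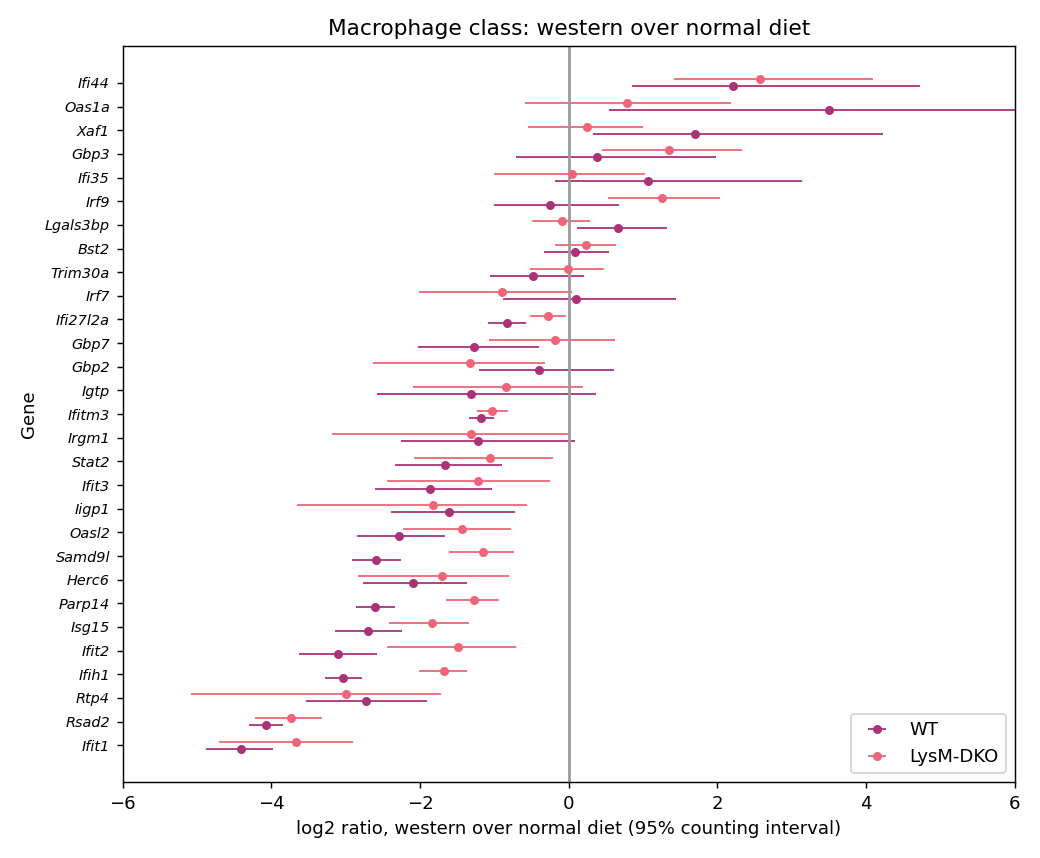
Log2 ratio of western over normal diet in macrophages for the 29 genes with at least 20 UMIs over the pair in both WT and LysM-DKO, with 95% counting intervals; the interval of Oas1a in WT has no upper end and stops at the edge of the axis. Ifit1 and Rsad2 lie farthest to the left in both genotypes, at -4.41 and -4.06 in WT.

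Several other measures were set beside this contrast, and not all of them moved with it. Summed foamy macrophage markers (Trem2, Gpnmb, Spp1, Fabp5) in the macrophage class were 235, 1121, 14690 and 4870 CPM, and summed resident markers (Lyve1, Folr2, F13a1, Cd163) 1684, 1307, 270 and 1079 CPM. Summed dissociation stress genes, which include Fos and Jun, were 9577, 6950, 4044 and 5751 CPM. Plasmacytoid dendritic cell markers, a cell type known for interferon, summed to 33.5, 40.0, 15.3 and 28.5 CPM with Klk1 at 0, and neutrophil markers to between 19.9 and 25.4 CPM with S100a9 and Retnlg at 0. The part of foamy markers and stress genes in the contrast was not tested as a cause. In the macrophages with resident markers alone, a subset chosen after the values were seen (63, 105, 47 and 53 barcodes), Rsad2 was at 526, 678, 64.8 and 43.2 CPM. Its western-to-normal log2 ratios there were -2.97 in WT and -3.87 in LysM-DKO. The medians there were nearer to 0, at -0.88 over 18 genes and -0.46 over 20 genes. Of the 15 genes lower in both diet pairs, Ifit1 fell there too, at 239, 203, 13.9 and 37.1 CPM. Ifitm3, another of the 15, was nearly level there, at 846, 898, 787 and 865 CPM. Ifit3 was not lower there, at 12.9, 32.7, 13.9 and 55.6 CPM, on few UMIs. Stat2 and Irgm1 were not lower there in LysM-DKO, also on few UMIs. Stat2 was at 45.2, 48.0, 27.8 and 68.0 CPM, and Irgm1 at 12.9, 8.72, 9.26 and 18.5 CPM. In barcodes with a single class rule, Rsad2 was at -3.90 and -4.16 and Ifit1 at -4.47 and -3.55.

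Within a diet, the medians over macrophages of LysM-DKO and WT lay nearer to 0. On normal diet the median LysM-DKO-to-WT log2 ratio was -0.05 over 29 genes, beside 0.05 over all genes. At least 2-fold higher were 3 genes, Lgals3bp, Xaf1 and Ifi35, against 6.55% of all genes. Ifit2 alone was at least 2-fold lower, against 2.39%. Lgals3bp had a log2 ratio of 1.31 (0.73 to 1.99), Xaf1 2.18 (0.72 to 4.72) and Ifit2 -1.14 (-1.65 to -0.63). Ifit2 was at 0.085 in the barcodes with resident markers. Rsad2 had a ratio of -0.30 (-0.46 to -0.14), which came to -0.88 in barcodes with a single class rule and 0.36 in those with resident markers, so its sign was not settled.

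On western diet the median ratio of LysM-DKO over WT was 0.35 over 31 genes, beside -0.05 over all genes, and 0.706 with equal weight per barcode. At least 2-fold higher were 6 genes, Igtp, Gbp3, Irf9, Trim30a, Isg15 and Ifih1, against 4.1% of all genes, and 0 were lower, against 9.1%. Irf9 had a log2 ratio of 1.08 (0.51 to 1.61), Trim30a 1.07 (0.60 to 1.50) and Isg15 1.05 (0.44 to 1.61). Ifih1 was at 1.04 (0.68 to 1.37) over all macrophages, at 0.22 in those with resident markers and at -0.01 in those with foamy markers. Foamy-marker barcodes made up 399 of 939 macrophages in WT western and 43 of 135 in LysM-DKO western. Rsad2 was at 0.03 (-0.48 to 0.48).

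Part of the list was also high in fibroblasts. Called higher there were 13 of 32 genes (edgeR; background 26%) and 1 was lower (background 24.6%). Of the 13, 8 were also among the 23 higher in macrophages (61.5% and 34.8% of these lists). Iigp1, Irgm1, Gbp2, Gbp7 and Stat2 were not. As 23 of all 32 genes were higher in macrophages, 8 of 13 is no excess, and the overlap over all genes was not counted. By size the 13 were led by Iigp1 (2.66), Ifitm3 (2.28), Ifit3 (1.89), Rtp4 (1.73), Lgals3bp (1.47) and Irgm1 (1.07). Xaf1, Isg15, Bst2, Gbp2, Gbp7, Ifi27l2a and Stat2 followed at 1.05 to 0.49. Rsad2 was lower, with a log2 difference of -1.33 (adjusted p = 0.025), a call lost without LysM-DKO on normal diet (-1.08, adjusted p = 0.235). Ifitm3, at chr7:141009586-141010770, was at 1235, 1485, 943 and 1028 CPM in fibroblasts and at 43.7 to 882 CPM in all other classes, with no overlap.

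Iigp1 encodes a GTPase of the immunity-related family that disrupts vacuoles of pathogens. It was at 337, 234, 57.3 and 67.4 CPM in fibroblasts, and at 124, 150, 40.2 and 60.5 CPM in the Pecam1/Cdh5 class. In macrophages it was at 37.7, 27.3, 12.5 and 7.1 CPM. The western diet libraries were low in fibroblasts, with a log2 ratio of -2.56 (-2.77 to -2.35) in WT and, for LysM-DKO, -1.80 (-2.02 to -1.58). It was low there in the Pecam1/Cdh5 class too, at -1.62 and -1.31. Fibroblasts of WT western held 4001 CPM of chondrocyte markers and 12632 CPM of foamy markers, against 144 and 359 CPM in WT on normal diet, and the part of these in the ratio was not tested.

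Over the list, the diet medians of fibroblasts lay nearer to 0. The median log2 ratio was -0.39 in WT, with 7 of 31 genes at least 2-fold lower (7.72% of all genes) and 2 higher (9.59%). In LysM-DKO it was -0.15, with 4 lower (5.63%) and 0 higher (5.93%). The all-gene medians were 0.13 and 0.16. With equal weight per barcode the WT median was -0.237, and with median-ratio scaling that of LysM-DKO was -0.313. Stat2 and Irgm1 were lower on western diet in WT, at -1.05 and -1.15. By genotype the medians were 0.02 on normal diet and 0.35 on western diet over 31 and 30 genes, and in barcodes with a single class rule they were -0.147 and -0.00330. With equal weight per barcode the western diet median was 0.100. At least 2-fold higher were 1 gene (2.71%) and 2 genes (3.11%), and 0 were lower in both (1.57% and 3.7%). Trim30a was the largest ratio on western diet, at 28.1, 38.8, 12.8 and 31.0 CPM and a LysM-DKO-to-WT log2 ratio of 1.27 (0.78 to 1.79).

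The Pecam1/Cdh5 class held 8 of 32 genes called higher, no more than the background of 27.9%, and 1 lower (background 18.5%). The 8 were Iigp1, Ifi44, Ifit3, Ifitm3, Xaf1, Gbp2, Gbp7 and Bst2, and the lower gene was Ifi27l2a at -1.18. Without WT on normal diet 5 were higher, without LysM-DKO on normal diet 3, and without LysM-DKO western 5. In barcodes with a single class rule 11 were higher and 0 lower. Ifit3 was at 9.65, 8.84, 20.4 and 45.0 CPM and so was high in LysM-DKO western, with western-to-normal log2 ratios of 1.07 in WT and 2.34 in LysM-DKO. Its LysM-DKO-to-WT ratio on western diet was 1.14 (0.73 to 1.57), and -1.51 in barcodes with a single class rule. Rsad2 was at 16.7, 21.0, 5.02 and 5.35 CPM there, low on western diet in both genotypes (-1.70 and -1.94). The median ratios of western over normal diet were -0.31 and -0.18 over 31 genes each, with 6 genes (8.55%) and 3 genes (8.75%) at least 2-fold lower and 4 genes (5.91%) and 4 genes (3.45%) higher. In barcodes with a single class rule these medians were -0.597 and -0.490, and with equal weight per barcode -0.102 and -0.439. The medians of LysM-DKO over WT were 0.27 and 0.34 (0.108 on western diet with equal weight per barcode), with 4 genes (3.51%) and 7 genes (3.03%) at least 2-fold higher and 0 lower (1.05% and 3.68%).

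T cells held 2 of 32 genes called higher (background 26.3%) and 7 lower (background 29.8%). Igtp, a GTPase of the immunity-related family also called Irgm3, was at 56.4, 57.6, 42.2 and 8.28 CPM in T cells, and at 3.79 to 26.3 CPM in the other classes. The lowest T cell value rests on 1 UMI from 33 barcodes. The log2 difference was 2.06 (edgeR, adjusted p = 2.3e-08). Igtp overlaps Irgm2 on the same strand, and reads of the 2 may not be separable. Trim30a was higher by 1.11 (adjusted p = 0.0045), and by 0.98 without WT on normal diet (adjusted p = 0.082). The lower genes were Ifit2, Ifit3, Rsad2, Bst2, Ifitm3, Lgals3bp and Xaf1, 4 without WT on normal diet and 3 without LysM-DKO on normal diet. On normal diet the median ratio of LysM-DKO over WT was 0.40 over 27 genes, with 4 genes (5.15%) at least 2-fold higher and 1 (1.54%) lower. Ifi27l2a was at 1.39 and Ifitm3 at 1.20, while Gbp2 was at -1.15. Western over normal diet in WT gave a median of 0.17 over 24 genes, with 4 (11.4%) higher and 3 (5.15%) lower. The pairs with the 33 T cells of LysM-DKO western rest on few UMIs. On western diet they gave a median of -0.06 over 12 genes, with 1 (7.62%) higher and 1 (9.75%) lower, and across diets 2 of 24 genes (15.3%) were higher and 6 (13.2%) lower. Of those 6, Rsad2 and Irgm1 had no UMI in the 33 cells and allow no fold.

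B cells stood low: 0 of 32 genes were called higher (edgeR, also 0 at an unadjusted p under 0.05; background 26.6%) and 18 lower (background 28%). The 18 took in Irf7, Isg15, Usp18, Ifit1, Ifit2, Ifit3, Oasl2, Rsad2 and Ifih1. Without WT on normal diet 11 were lower, and without LysM-DKO on normal diet 6. Ifit1 was at 0 to 0.367 CPM in the 3 B cell libraries and at 1.11 CPM or more in every other class and library. In B cells of WT western a count of 0 allows up to 2.35 CPM, so Ifit1 there cannot be placed below the lowest of those values. The other 14 did not pass, among them Samd9l at 73.4, 58.7 and 125 CPM (log2 difference 0.31) and Irf9 (0.17), for both of which B cells were the highest class in WT western. On normal diet the median ratio of LysM-DKO over WT was 0.35 over 25 genes, with 5 (4.67%) at least 2-fold higher and 0 (1.69%) lower. Western over normal diet in WT gave 0.59 over 20 genes, with 6 (5.27%) higher and 0 (7.11%) lower. In barcodes with a single class rule these medians were 0.126 and 0.234, and with equal weight per barcode 0.553 and 0.358.

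Smooth muscle, the largest class, held 0 genes called higher (also 0 at an unadjusted p under 0.05; background 28.2%) and 21 of 32 lower (25 unadjusted, 23 with DESeq2; background 25.6%). Trim30a was lowest against the other classes (-2.91), followed by Ifi27l2a (-2.07) and Parp14 (-2.02). Trim30a was at 3.50, 8.50, 4.60 and 1.80 CPM, below the 9.16 to 83.6 CPM of all other classes.

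Within smooth muscle the direction of the genotype ratio turned with diet. On normal diet the median of LysM-DKO over WT was 0.80 over 31 genes, with 14 at least 2-fold higher (6.48% of all genes) and 0 lower (0.975%). On western diet it was -0.61 over 32 genes, with 0 higher (1.92%) and 12 lower (9.52%). The all-gene medians were 0.02 and -0.02. Across diets the medians were 0.49 in WT, with 9 higher (5.43%) and 3 lower (9.25%), and -0.82 in LysM-DKO, with 0 higher (2.72%) and 15 lower (17%). With equal weight per barcode the diet medians were 0.287 and -1.327. These 4 ratios share libraries, and the 32 genes summed to 506, 842, 814 and 502 CPM.

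Several genes stood high in LysM-DKO on normal diet and in WT western. Oasl2 was at 0.99, 6.11, 2.65 and 1.08 CPM. Gbp3 was at 2.89, 7.33, 7.71 and 3.30 CPM and Trim30a, as above, was highest in LysM-DKO on normal diet. Ifi27l2a was at 23.7, 88.1, 15.9 and 10.6 CPM, high in LysM-DKO on normal diet only, with a log2 ratio of 1.89 (1.75 to 2.04). Rsad2 kept the macrophage order by diet, at 7.73, 19.7, 2.27 and 1.10 CPM, a western-to-normal log2 ratio of -1.76 in WT and -4.15 in LysM-DKO. Ifi44 was at 0.13, 1.63, 4.07 and 0.48 CPM.

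Markers of other cells moved in smooth muscle as well. Erythroid markers summed to 10198, 17439, 377 and 53.3 CPM, B cell markers to 146, 545, 74.0 and 0.788 CPM, macrophage markers to 22.6, 49.7, 90.5 and 11.7 CPM and fibroblast markers to 878, 1174, 4589 and 939 CPM. The last pair of lists was highest in WT western, and erythroid and B cell markers were highest in LysM-DKO on normal diet, the libraries in which the genes stood high. The median UMIs per barcode were lowest in the same 2 libraries, at 6228.5, 3667, 2219.5 and 6975. With barcodes under 1% hemoglobin UMIs the medians of LysM-DKO over WT were again 0.80 and -0.61. With at least 2000 UMIs per barcode they were 0.90 and -0.57. The part of macrophage, B cell and fibroblast RNA was not tested.

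**Figure D4:**
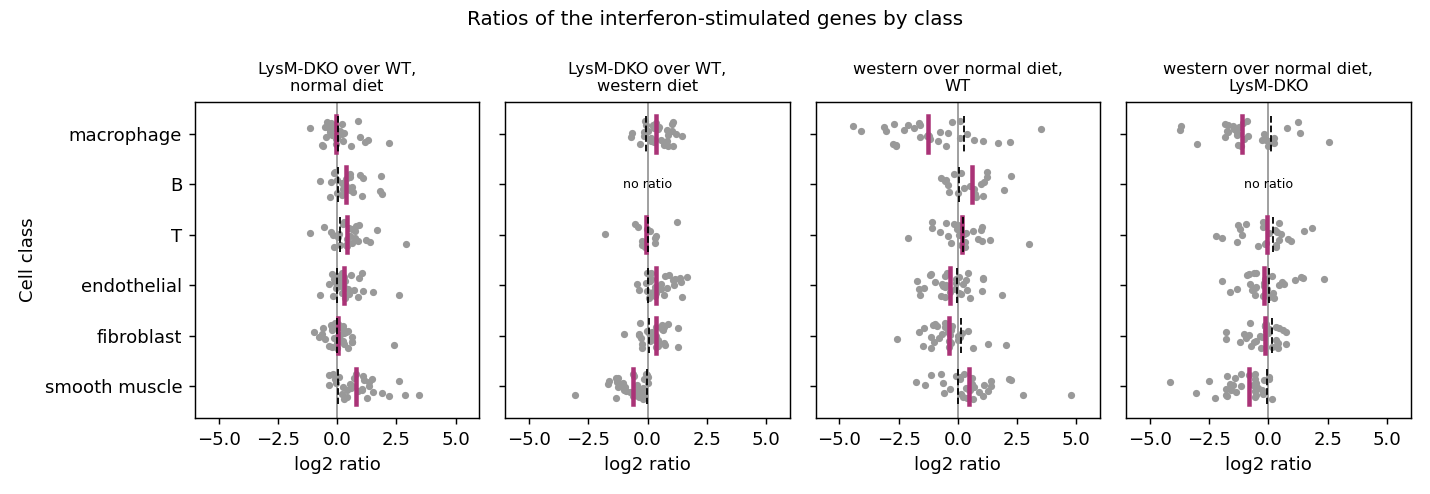
Log2 ratios of single genes (grey points, at least 20 UMIs over the pair) in each class for the 4 comparisons of libraries, with the median of the genes as a purple bar and that of all genes as a dashed line; B cells have no ratio where LysM-DKO western enters. The macrophage medians for western over normal diet are -1.28 and -1.11, and the smooth muscle medians for LysM-DKO over WT are 0.80 on normal diet and -0.61 on western diet.

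Xaf1 was lowest in the same library in every class. It encodes a partner of the apoptosis inhibitor XIAP and lies at chr11:72301629-72313733. WT on normal diet was that library in all 6 classes. The levels were 6.3, 32.7, 23.8 and 38.5 CPM in macrophages, 7.03, 38.2, 29.4 and 48.8 CPM in fibroblasts, and 7.09, 43.8, 26.0 and 29.6 CPM in the Pecam1/Cdh5 class. The LysM-DKO-to-WT log2 ratio on normal diet was 2.41 (1.76 to 3.20) in fibroblasts, 2.61 (2.11 to 3.18) in the Pecam1/Cdh5 class and 2.87 (2.49 to 3.29) in smooth muscle, where WT on normal diet was at 2.72 CPM and the other libraries at 13.8 CPM or more. Ifi44 was also lowest in WT on normal diet in all 6 classes. In macrophages of that library both genes stood at the limit of a count of 0, 6.28 CPM. Ifi44 was at that limit in its smooth muscle too, at 0.13 CPM. The share of all genes lowest in the same library in every class was not counted. Classes of a library share its preparation and are not replicates of the genotype.

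The other genes of the pathway were taken from a list of 97, of which 92 had a row and 80 were tested. In macrophages 50 of the 80 were higher and 1 was lower (21.1% and 22.4% of all genes). B cells had 32 and 17 (26.6% and 28%), T cells 32 and 20 (26.3% and 29.8%) and the Pecam1/Cdh5 class 12 and 32 (27.9% and 18.5%). Fibroblasts had 23 and 26 (26% and 24.6%) and smooth muscle 3 and 59 (28.2% and 25.6%). By role in macrophages, higher were 3 of 5 receptors, 8 of 11 genes of nucleic acid sensing, 2 of 5 other IRFs, 3 of 6 feedback genes and 32 of 46 further induced genes.

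Oasl1, a relative of the oligoadenylate synthetases, was at 905, 774, 38.9 and 105 CPM in macrophages, a log2 difference of 8.64 (edgeR, adjusted p = 7.5e-16). Cxcl10, a chemokine for T cells, was at 2563, 1467, 375 and 634 CPM (5.43, adjusted p = 8.4e-09). Tlr7, an endosomal sensor of single-stranded RNA, was higher by 6.52, and the transcription factors Irf5 and Irf8 by 4.40 and 2.94. Oasl1 and Cxcl10 thus stood high and low in the same macrophage libraries as Rsad2.

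Ligands were rare. Ifnb1, which encodes IFN-beta and was singled out after its values were seen, had 32, 13, 10 and 3 UMIs in macrophages, or 67.0, 11.8, 2.56 and 4.27 CPM. It was higher in macrophages than elsewhere with an adjusted p of 1.4e-07 in edgeR's test. Ifng, the ligand of the GAS branch, was at 11.9, 27.6, 34.1 and 33.1 CPM in T cells, a log2 difference of 6.39 (edgeR, adjusted p = 7e-11). Of the 5 receptor genes in macrophages, Ifnar2, Ifngr1 and Ifngr2 were at least 2-fold higher in western over normal diet in WT (1.16, 1.20 and 1.07), and Ifngr1 in LysM-DKO (1.82). The pathway genes as a whole had a median western-to-normal ratio in macrophages of -0.63 over 66 genes in WT (all genes 0.25), with 22 lower (8.71% of all genes) and 5 higher (21%). In LysM-DKO it was -0.15 over 60 genes (all genes 0.10), with 11 lower (6.46%) and 2 higher (7.11%).

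Genes with and without the ISRE core were among those higher in macrophages. Of the 15 genes with the core, 10 were called higher in macrophages, and of the 11 without it, 9. On western over normal diet in WT, 10 of 15 genes with the core were at least 2-fold lower (median -1.28) and 4 of 10 without it (median -0.08). In LysM-DKO these were 9 of 15 (median -1.06) and 5 of 11 (median -0.90). Igtp and Gbp7, shown above with the core, were not called higher in macrophages, at log2 differences of -0.01 and 0.51.

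Last, the UMIs of these genes were unevenly spread over barcodes. Each barcode was thinned to 1000 UMIs, with no barcode left out, and 29 genes were summed, without Ifitm3, Bst2 and Lgals3bp. Macrophages held 3.45, 3.03, 0.847 and 1.49 such UMIs per barcode on average. Smooth muscle held 0.347, 0.544, 0.355 and 0.248, and fibroblasts 1.08, 0.987, 0.768 and 0.809. The share of macrophages with at least 5 such UMIs was 21.7% (13.8 to 31.6), 21.2% (15.8 to 27.3), 3.41% (2.34 to 4.78) and 6.67% (3.09 to 12.3), with exact binomial intervals of 95%. Without thinning these shares were 64.1%, 70.7%, 21.1% and 48.1%, at median depths of 4708.5, 4715, 2796 and 4025 UMIs. The variance over the mean (Fano factor) was 6.85, 4.68, 3.42 and 3.05 in macrophages, and the 10% of macrophages with the most held 42.9%, 39.0%, 54.7% and 41.3% of these UMIs.

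Rsad2 was seen in a minority of macrophages. After thinning, 22.8%, 25.5%, 3.09% and 6.67% of macrophages had a Rsad2 UMI, and without thinning 35.9%, 41.3%, 6.07% and 9.63%. In B cells the thinned shares were 0.259%, 0.446% and 0.199% in the first 3 libraries, at median depths of 2952, 3518 and 1924 UMIs, a class set beside macrophages as background. After thinning, 21, 53, 29 and 9 macrophages had a Rsad2 UMI. They held on average 5.24, 3.77, 3.34 and 1.56 UMIs of the other summed genes, again without Ifitm3, Bst2 and Lgals3bp. Those without a Rsad2 UMI held 1.87, 1.79, 0.705 and 1.40. The means were closest in LysM-DKO western, where 1 of them rests on 9 barcodes, and the differences were not tested. In the Pecam1/Cdh5 class of LysM-DKO western the Fano factor was 5.05, against 2.44 to 3.35 in the other libraries, and the top 10% of barcodes held 62.8% of the UMIs, with up to 25 in a barcode. Iigp1 was seen in 17.4%, 12.3%, 6.62% and 6.42% of thinned fibroblasts (33.3%, 27.8%, 15.3% and 13.5% without thinning) and in 1.09%, 1.92%, 1.06% and 0.741% of thinned macrophages.

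**Figure D5:**
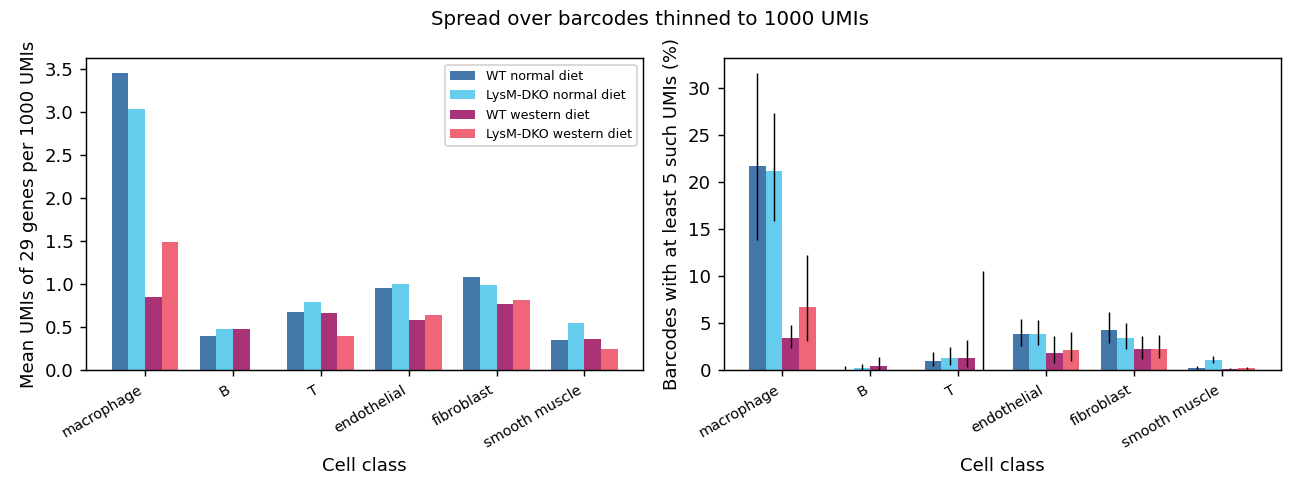
Left, mean UMIs of the 29 genes per barcode thinned to 1000 UMIs, by class and library; right, the percent of barcodes with at least 5 such UMIs, with exact 95% intervals. Macrophages of the normal diet libraries stand at 3.45 and 3.03 UMIs and at 21.7% and 21.2% of barcodes, above all other classes.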

How the data were processed

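Single-cell RNA from collagenase- and liberase-digested mouse aorta was measured with a 10x 3′ kit in 4 libraries. The deposited matrices hold whole-number UMI counts per gene and barcode, without scaling by the authors. Per the file headers they were made with Cell Ranger 6.0.1 (normal diet) and 6.1.2 (western diet), and the submitters' processing notes name Cell Ranger 6.1.2, Seurat 4.1.0 and mm10.

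Barcodes under 1000 UMIs or over 10% mitochondrial were dropped, and the rest took the first matching class: C1qa, C1qb and C1qc at least 5 (macrophage), Cd79a and Ms4a1 at least 2 (B), Cd3d, Cd3e and Trac at least 2 (T), Pecam1 and Cdh5 at least 2, Pdgfra and Serpinf1 at least 3 (fibroblast), Myh11 and Cnn1 at least 3 (smooth muscle). No doublet caller was run, and barcodes meeting a second rule were left out as an alternative. Counts were summed per class and library. Log2 ratios add 0.5 UMIs, use genes with at least 20 UMIs over the pair, and carry exact binomial 95% intervals; levels carry exact Poisson intervals. Class tests used edgeR 4.0.16 (R 4.3.3; TMM scaling, filterByExpr, library term, quasi-likelihood F test) on 23 sums with 14 residual degrees of freedom, with DESeq2 1.42.0 as an alternative, and were tested on simulated data. Other steps ran in scipy 1.17.1, numpy 2.4.6 and pandas 2.3.3 under Python 3.11.15, with plots from matplotlib 3.10.9. Gene locations are from GENCODE M21 and promoters from RefSeq, both on GRCm38. Near copies (Ifit3b, Oas1g, the Gbp and Trim30 families) and overlaps on the same strand (Irf9 with Rnf31, Igtp with Irgm2, Rtp4 with Gm45338) make those counts uncertain. Overlaps on the other strand are Irf7 with Phrf1, Usp18 with Gm44148, Ifi35 with Gm11626 and Rtp4 with Masp1.

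The genes, lists and comparisons were chosen with earlier results of these data known. Values in each library are given for genes with at least 100 UMIs in a class, and in a pair those of at least 100 UMIs with the largest ratios are named first, up to 8; further genes are named as examples. Alternatives were depth, mitochondrial and single-rule filters, scaling, equal weight per barcode, other models and leaving out each library. Subsets by hemoglobin, resident and foamy markers (at least 2 UMIs of their own markers and under 2 of the other's) were chosen after seeing the data. An item withheld for evaluation is not reported here.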

Additional observations from a re-analysis of the deposited data

Results flagged for a closer look

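In smooth muscle the LysM-DKO-to-WT log2 ratio had opposite signs on the 2 diets, and the difference was not tested, since each group is 1 library. The median over the genes was 0.80 on normal diet and -0.61 on western diet. Oasl2, of the oligoadenylate synthetase family, stood at 2.60 on normal diet and -1.29 on western diet. Ifit3 stood at 1.11 and -1.30, and Rsad2 at 1.35 and -1.04. The GTPase genes Gbp3 and Iigp1 stood at 1.34 and -1.22 and at 1.05 and -1.01. Trim30a stood at 1.28 and -1.35.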

How the results depend on the processing

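The 22 medians kept their direction and stayed within the counting spread in 127 alternatives, moved beyond it in 29 and turned sign in 1. With equal weight per barcode, the medians for LysM-DKO over WT came to 0.706 (macrophages, western), 0.553 (B cells, normal), 0.108 (Pecam1/Cdh5 class, western), 0.100 (fibroblasts, western), and 0.641 and -0.850 (smooth muscle, normal and western). For western over normal diet they came to 0.358 (B cells, WT), -0.102 and -0.439 (Pecam1/Cdh5 class, WT and LysM-DKO), -0.237 (fibroblasts, WT), 0.287 and -1.327 (smooth muscle), and -0.477 (macrophages, LysM-DKO). With single-rule barcodes the macrophage diet medians were -0.992 and -0.871, those of B cells 0.126 (genotype) and 0.234 (diet), those of the Pecam1/Cdh5 class -0.597 and -0.490, and the fibroblast genotype medians -0.147 (normal) and -0.00330 (western, the change of sign). Median-ratio scaling gave -1.525 for macrophages in WT and -0.313 for fibroblasts in LysM-DKO. Macrophages with resident markers gave -0.876 and -0.456. Genes with at least 1 UMI gave 0.579 in T cells (genotype, normal diet) and -0.979 in smooth muscle (diet, LysM-DKO). At least 2000 UMIs per barcode gave 0.490 in the Pecam1/Cdh5 class (genotype, western) and -0.677 in smooth muscle (diet, LysM-DKO), where at most 20% mitochondrial UMIs gave -1.085. Of single genes, the ratio turned for Ifit2 (0.0855, genotype, normal diet, resident markers), Ifih1 (-0.0109, genotype, western, foamy markers) and Ifit3 (-1.51, Pecam1/Cdh5 class, western, single rule), and the class difference turned for Igtp in the Pecam1/Cdh5 class (0.945, single rule); the cause was not tested.

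Leaving out each library gave 18 to 26 genes called higher in macrophages and 0 to 0 lower, 0 to 0 and 6 to 19 in B cells, 1 to 3 and 3 to 9 in T cells, 3 to 6 and 1 to 2 in the Pecam1/Cdh5 class, 10 to 12 and 0 to 3 in fibroblasts, and 0 to 0 and 17 to 23 in smooth muscle. In macrophages, Ifit3, Cmpk2 and Samd9l lost their call without either normal diet library, and Herc6 and Usp18 without that of LysM-DKO. In the Pecam1/Cdh5 class, 2 genes were lower with DESeq2 and 0 with no library term or single-rule barcodes, and in fibroblasts 0 were lower with no library term. No paired analysis was possible because each group is 1 library and the labels give no replicate numbers. Depth limits small classes: 3 counts, the limit of a count of 0, are 6.28, 2.73, 0.767 and 4.27 CPM in macrophages and 24.8 CPM in T cells of LysM-DKO western, and foamy subsets of the normal diet libraries, with under 20 barcodes, gave no ratio.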
